A study of Homo sapiens with 6 samples.

Results

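Complement is a cascade of plasma proteases that marks cells and debris for removal, and it can be started through C1, through lectins or by spontaneous activation of C3. Host cells hold it in check with soluble inhibitors and with proteins on their own surface. The retinal pigment epithelium makes many of these components and regulators locally, and variants near several complement genes are linked to age-related macular degeneration. PTX3 is a long pentraxin, a secreted pattern recognition protein of innate immunity that binds C1q.

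The genes described here are 9 by name: the C1 proteases C1R and C1S, their inhibitor SERPING1, the central component C3, its partner factor B (CFB), the C3b-degrading protease factor I (CFI), the surface regulators CD55 and CD59, and PTX3. All 9 were found by Entrez gene ID among 17945 genes kept from the deposited table. They were measured by RNA sequencing in ARPE-19, an established human retinal pigment epithelial cell line with wild-type genotype. The cinobufagin group held 3 libraries of cells given 320 nM of the compound for 24 h, and the DMSO group held 3 libraries of cells given the solvent for 24 h. Cinobufagin is a toad venom steroid that inhibits the sodium pump, Na+/K+-ATPase. No source used here tells whether libraries of a group are separate cultures, so p-values measure the spread between these libraries, which may be technical.

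FPKM values count fragments relative to transcript length and to all fragments mapped in the library, so levels of different genes can be set side by side. Values of the genes kept summed to 534694 to 545499 FPKM in the cinobufagin libraries and 538039 to 560721 FPKM in the DMSO libraries. Of 16 pigment epithelium markers, 10 were tested, of which 3 rose and 4 fell (limma, adjusted p under 0.05). Of all genes tested, 67.7% were called, 39.2% as higher and 28.4% as lower. The 16 pigment epithelium markers summed to 701 to 707 FPKM with cinobufagin and 872 to 939.5 FPKM with DMSO. Most of this came from the keratins KRT8 and KRT18. KRT8 averaged 316 FPKM with cinobufagin and 454 FPKM with DMSO, and KRT18 averaged 232 FPKM with cinobufagin and 324 FPKM with DMSO. RPE65, the isomerase of the visual cycle, was at 0 to 0.03 FPKM in every library and TTR, which carries thyroxine and retinol, was listed at 0, while the transcription factor OTX2 averaged 74.5 FPKM with cinobufagin and 48.5 FPKM with DMSO. The part of these marker changes in the results below was not tested. Macrophage markers summed to 0.47 to 0.84 FPKM with cinobufagin and 0.2 to 0.84 FPKM with DMSO over the 7 of 10 found, with PTPRC at 0. The 5 of 7 endothelial markers found summed to 0.1 to 0.21 FPKM with cinobufagin and 0.31 to 0.67 FPKM with DMSO. Fibroblast markers summed to 13.9 to 14.9 FPKM with cinobufagin and 14.6 to 15.2 FPKM with DMSO, nearly all of it from PDGFRB at 13.9 FPKM with cinobufagin and 13.7 FPKM with DMSO, while COL1A2 was at 0.01 FPKM or lower in every library.

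All 9 genes passed the filter of 1 FPKM in at least 3 libraries, CFI only with its cinobufagin libraries counted, and all 9 were called. With cinobufagin 7 were lower (PTX3, C1R, SERPING1, CD55, CFB, C3 and C1S) and 2 were higher (CFI and CD59). Over the 11599 genes tested, 67.7% were called at an adjusted p under 0.05, 28.4% as lower and 39.2% as higher, so a call as such was common. The median log2 fold change was -0.37 over the 9 genes and 0.06 over all genes tested. The libraries of the groups did not overlap in any of the 9, with 7 wholly lower and 2 wholly higher; over all genes tested this held for 70.8%, with 29.6% wholly lower and 41.2% wholly higher. Of the 9, 1 gene, PTX3, was lower by at least 1 on the log2 scale, a change that 3.34% of genes tested showed. In these bulk libraries, fewer cells that express a gene and less RNA per cell cannot be told apart.

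**Figure D1:**
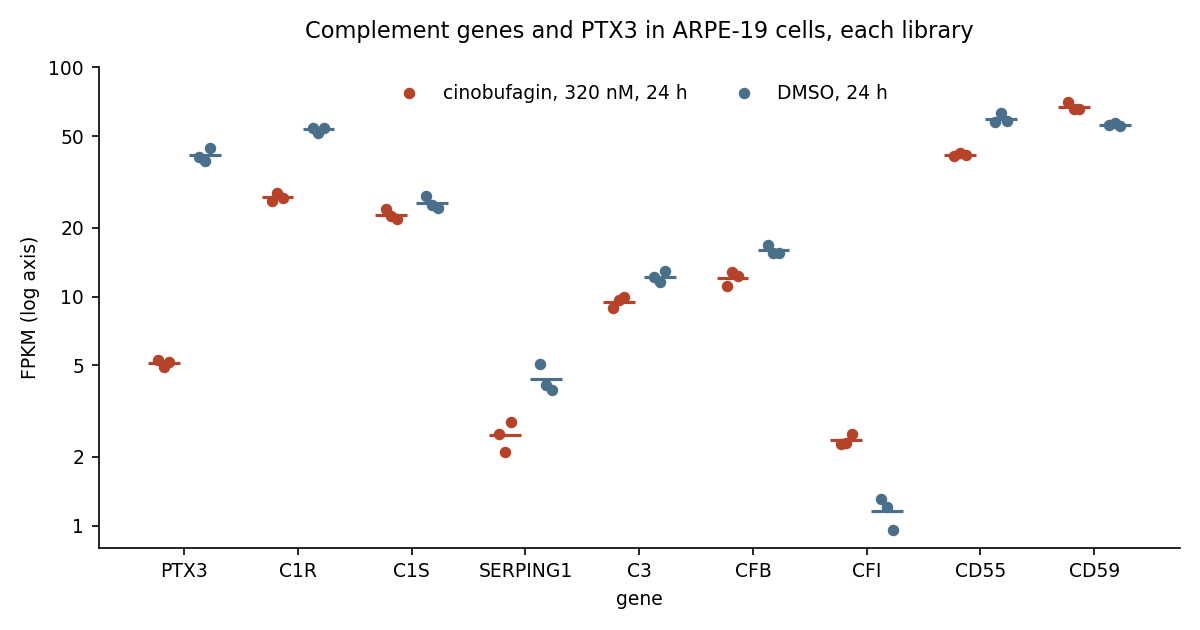
FPKM of each gene in each library on a log axis, with cinobufagin libraries left of DMSO libraries; points are libraries and short lines are group means (n = 3 each). PTX3 lies near 5 FPKM in the cinobufagin libraries, and CFI and CD59 are the genes whose cinobufagin libraries lie above the DMSO libraries.

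Promoters were looked up for all 9 genes in a RefSeq table of windows from 250 bases before to 50 bases after the annotated start, and 6 genes had at least 1 window. C1S, C3 and SERPING1 were not matched. The windows of PTX3, CFI and C1R are shown because they belong to the gene with the largest fall, the gene with the largest rise and the C1 protease that fell most. Capitals mark matches to motifs of inflammatory transcription factors and to the TATA box, searched on both strands. Coordinates are on GRCh38.p14.
PTX3, chr3:157436600-157436899, plus strand: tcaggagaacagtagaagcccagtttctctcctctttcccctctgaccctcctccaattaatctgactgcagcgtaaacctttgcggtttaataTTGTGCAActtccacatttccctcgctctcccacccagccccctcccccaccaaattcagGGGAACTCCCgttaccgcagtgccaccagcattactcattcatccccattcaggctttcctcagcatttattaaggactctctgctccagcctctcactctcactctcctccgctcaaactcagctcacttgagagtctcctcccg
CFI, chr4:109801950-109802249, minus strand: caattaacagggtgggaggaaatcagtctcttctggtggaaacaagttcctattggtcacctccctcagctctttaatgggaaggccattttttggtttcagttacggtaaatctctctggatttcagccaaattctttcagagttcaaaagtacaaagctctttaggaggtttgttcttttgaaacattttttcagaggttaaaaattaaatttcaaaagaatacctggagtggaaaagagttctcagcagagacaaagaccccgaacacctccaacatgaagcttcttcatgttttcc
C1R, chr12:7092396-7092695, minus strand: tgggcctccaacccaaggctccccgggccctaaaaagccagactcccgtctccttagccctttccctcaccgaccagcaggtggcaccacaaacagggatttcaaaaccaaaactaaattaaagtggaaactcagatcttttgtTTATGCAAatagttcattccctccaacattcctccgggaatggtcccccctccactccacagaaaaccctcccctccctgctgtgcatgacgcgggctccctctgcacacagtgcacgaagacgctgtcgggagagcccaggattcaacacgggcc

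The motifs searched were NF-kappaB (GGGNN joined to TTNCC), the gamma-activated site (TTCNNNGAA), the interferon-stimulated response element (TTTCNN joined to TTTC), C/EBP (TTGCNNAA), AP-1 (TGANTCA) and the TATA box (TATAAA). The PTX3 window held an NF-kappaB match, GGGAACTCCC, whose first base is 96 bases before the start, and a C/EBP match, TTGTGCAA, 156 bases before it. The C1R window shown held a C/EBP match, TTATGCAA, 106 bases before the start. A second C1R window, for a start further downstream, held a gamma-activated site match and a different C/EBP match. The CFI window held 0 matches, with a GC content of 39.3%, against 52.3% in the PTX3 window and 55.3% in the C1R window shown. The CFB window held a gamma-activated site match 92 bases, an interferon-stimulated response element match 140 bases and a TATA box match 30 bases before its start. The CD55 window held an NF-kappaB match 216 bases before the start. Of 4 CD59 windows, 2 that share most of their bases held the same gamma-activated site match, 1 held C/EBP matches and 1 held AP-1 matches. Across 34796 promoter windows of the same length, an NF-kappaB match was in 5.67%, a gamma-activated site match in 7.67%, a response element match in 3.57%, a C/EBP match in 10.5%, an AP-1 match in 7.73% and a TATA box match in 11.6%. A match is a description of these letters, and none of the motifs overlapped another in the windows shown.

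PTX3 (gene ID 5806) is a soluble receptor that is made on the spot by many cell types during inflammation. It lies at chromosome 3, 157436789 to 157443628 on the plus strand (GRCh38, GENCODE 29), within VEPH1 on the opposite strand. PTX3 had 5.30, 4.93 and 5.16 FPKM in the cinobufagin libraries, against 40.64, 38.98 and 44.61 FPKM in the DMSO libraries. All cinobufagin libraries lay far below all DMSO libraries. The mean was 5.13 ± 0.187 FPKM with cinobufagin and 41.4 ± 2.89 FPKM with DMSO (SD, n = 3 each), which is 8.07-fold lower. The log2 fold change of FPKM + 1 was -2.79 (SE 0.06, 95% interval -2.92 to -2.66, adjusted p = 2.6e-11 by limma). Among the 11599 genes tested, 6 had a lower log2 fold change. VEPH1 had 10.79, 11.29 and 10.45 FPKM with cinobufagin and 12.18, 13.73 and 13.13 FPKM with DMSO. The sources used here give no strand setting, so reads from PTX3 and VEPH1 may not be separable where exons overlap.

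C1R and C1S encode the paired serine proteases of C1, which C1q activates: C1r cleaves C1s, and C1s cleaves C4 and C2. The genes are neighbours on chromosome 12 in opposite orientation, C1R at 7080199 to 7092607 on the minus strand and C1S at 6988259 to 7071032 on the plus strand, with 9167 bases between them. C1R (gene ID 715) had 26.15, 28.41 and 26.98 FPKM with cinobufagin, against 54.60, 51.88 and 54.38 FPKM with DMSO. Its libraries formed narrow groups that lay wide apart. C1R averaged 27.2 ± 1.14 FPKM with cinobufagin and 53.6 ± 1.51 FPKM with DMSO (SD, n = 3 each), 1.97-fold lower, with a log2 fold change of -0.96 (SE 0.05, adjusted p = 1.15e-08 by limma). Of all genes tested, 4.93% had a larger change in either direction. The 5′ part of C1R lies within C1RL, a related protease gene on the same strand, and reads there are uncertain. C1RL was at 15.00, 15.17 and 13.99 FPKM with cinobufagin and 15.66, 15.27 and 14.27 FPKM with DMSO (adjusted p = 0.639 by limma).

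C1S (gene ID 716) moved far less. It had 24.09, 22.49 and 21.69 FPKM with cinobufagin, against 27.34, 25.07 and 24.25 FPKM with DMSO. The highest cinobufagin library lay just under the lowest DMSO library. C1S averaged 22.8 ± 1.22 FPKM with cinobufagin and 25.6 ± 1.60 FPKM with DMSO (SD, n = 3 each), with a log2 fold change of -0.16 (SE 0.06, adjusted p = 0.0281 by limma). That call was lost without cinobufagin replicate 2 (log2 fold change -0.15, adjusted p = 0.0725 by limma), without cinobufagin replicate 3 (log2 fold change -0.13, adjusted p = 0.114) and without DMSO replicate 1 (log2 fold change -0.11, adjusted p = 0.0921). It was also lost with no filter on low values (adjusted p = 0.0549 by limma), in a range of adjusted p of 0.0105 to 0.114 over all its alternatives. In the annotation, long C1S transcripts overlap EMG1 on the same strand and LPCAT3 on the opposite strand.

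SERPING1 (gene ID 710), at chromosome 11, 57597387 to 57614853 on the plus strand, encodes C1 inhibitor, the serpin that inactivates C1r and C1s. It had 2.52, 2.09 and 2.82 FPKM with cinobufagin, against 5.06, 4.12 and 3.91 FPKM with DMSO. The groups did not overlap, and the spread was wide for such low values. The mean was 2.48 ± 0.367 FPKM with cinobufagin and 4.36 ± 0.612 FPKM with DMSO (SD, n = 3 each), 1.76-fold lower, with a log2 fold change of -0.62 (SE 0.10, adjusted p = 0.000187 by limma). The pseudocount of 1 shrinks the log2 value of a gene this low.

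C3 and CFB encode the core of the alternative pathway, in which C3b binds factor B to form the C3 convertase. C3 (gene ID 718; chromosome 19, 6677704 to 6730562, minus strand) had 8.89, 9.67 and 9.92 FPKM with cinobufagin, against 12.12, 11.60 and 12.88 FPKM with DMSO. It averaged 9.49 ± 0.537 FPKM with cinobufagin and 12.2 ± 0.644 FPKM with DMSO (SD, n = 3 each), and the log2 fold change was -0.33 (SE 0.06, adjusted p = 0.000592 by limma). All its cinobufagin libraries lay below its DMSO libraries. CFB (gene ID 629; chromosome 6, 31945650 to 31952084, plus strand) had 11.11, 12.85 and 12.32 FPKM with cinobufagin, against 16.73, 15.52 and 15.52 FPKM with DMSO. It averaged 12.1 ± 0.892 FPKM with cinobufagin and 15.9 ± 0.699 FPKM with DMSO (SD, n = 3 each), and the log2 fold change was -0.37 (SE 0.06, adjusted p = 0.000255 by limma). The log2 fold changes of CFB and C3 differed by less than the SE of either, and the groups of CFB did not overlap. Among all genes tested, 39.4% had a larger change than C3 and 34.3% a larger one than CFB. CFB overlaps C2, whose levels were 0.33 to 0.42 FPKM with cinobufagin and 0.13 to 0.34 FPKM with DMSO. Most of CFB also lies within AL645922.1, a same-strand gene with no entry under that name, and reads shared between them are uncertain. In the annotation C3 overlaps GPR108 on the same strand, which leaves reads in the shared part uncertain.

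CFI (gene ID 3426; chromosome 4, 109740694 to 109802179, minus strand) encodes factor I, a protease that cleaves C3b and C4b with the help of cofactors. It had 2.28, 2.29 and 2.51 FPKM with cinobufagin, against 1.31, 1.20 and 0.96 FPKM with DMSO. Every cinobufagin library was above every DMSO library, at low levels in both groups. With a DMSO library at 0.96 FPKM, CFI passed the filter only with its cinobufagin libraries counted, so its selection favoured a rise. The mean was 2.36 ± 0.130 FPKM with cinobufagin and 1.16 ± 0.179 FPKM with DMSO (SD, n = 3 each), 2.04-fold higher. The log2 fold change of FPKM + 1 was 0.64 (SE 0.09, adjusted p = 4.83e-05 by limma), and it was 0.98 with a pseudocount of 0.1. CFI overlaps a same-strand transcript, AC126283.2, that has no entry in the table, and reads shared between them are uncertain.

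CD55 and CD59 encode GPI-anchored proteins of the cell surface. CD55, decay accelerating factor, breaks up C3 convertases, and CD59 blocks the assembly of the membrane attack complex. CD55 (gene ID 1604; chromosome 1, 207321376 to 207386804, plus strand) had 40.89, 42.31 and 41.34 FPKM with cinobufagin, against 57.84, 63.12 and 58.40 FPKM with DMSO. The cinobufagin libraries were tightly grouped and all were lower. CD55 averaged 41.5 ± 0.726 FPKM with cinobufagin and 59.8 ± 2.90 FPKM with DMSO (SD, n = 3 each), 1.44-fold lower, with a log2 fold change of -0.51 (SE 0.05, adjusted p = 1.41e-06 by limma). CD59 (gene ID 966; chromosome 11, 33703010 to 33736491, minus strand) had 70.40, 65.77 and 65.76 FPKM with cinobufagin, against 56.28, 57.35 and 55.31 FPKM with DMSO. All its cinobufagin libraries lay above its DMSO libraries. CD59 averaged 67.3 ± 2.68 FPKM with cinobufagin and 56.3 ± 1.02 FPKM with DMSO (SD, n = 3 each), and the log2 fold change was 0.25 (SE 0.04, adjusted p = 0.000264 by limma). A change larger than that of CD59 was seen in 50.9% of genes tested. In the annotation CD59 overlaps AL049629.2, a same-strand gene with no entry under that name, which leaves reads in the shared part uncertain.

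**Figure D2:**
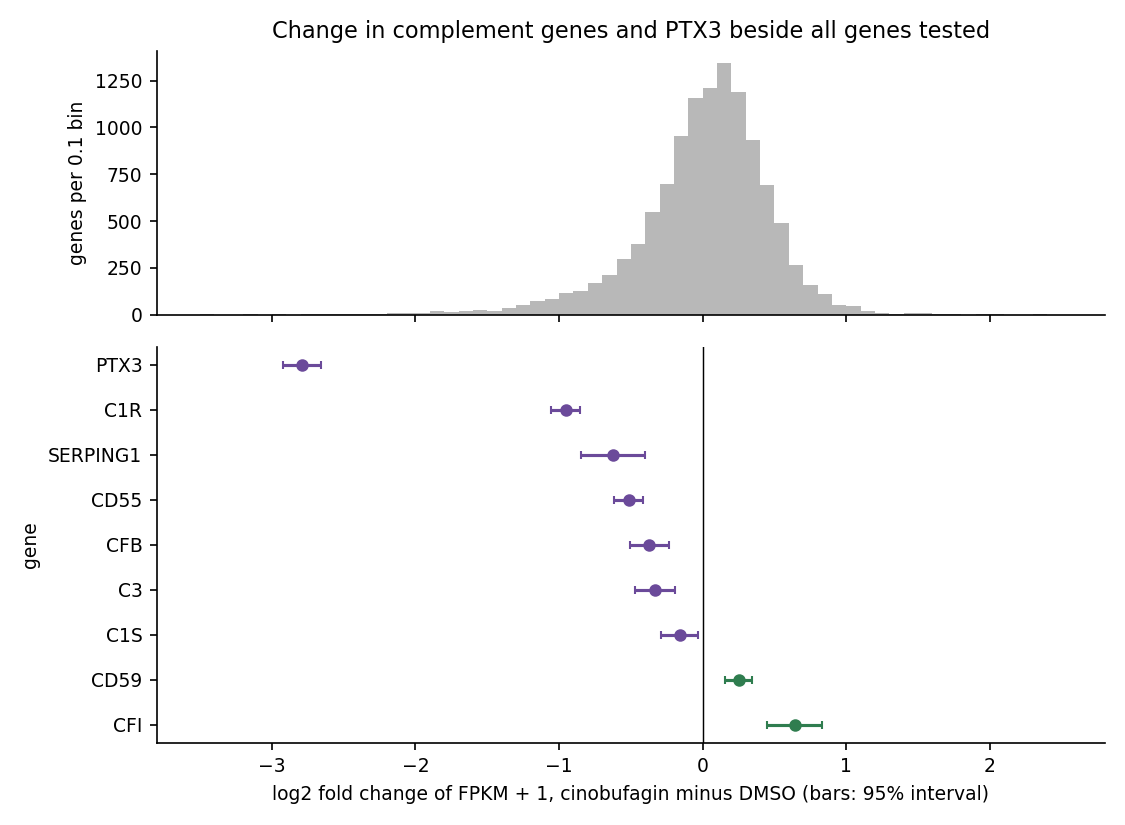
Upper panel, number of genes tested per 0.1 of log2 fold change, cinobufagin minus DMSO, with values beyond the axis put in the end bins; lower panel, the same quantity for each gene with its 95% interval from limma, purple for lower and green for higher. PTX3 at -2.79 lies in the far left tail, and the other 8 genes lie between -0.96 and 0.64.

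The order of the levels differed between the groups. With cinobufagin, CD59 stood first at 67.3 FPKM, followed by CD55, C1R, C1S, CFB, C3, PTX3, SERPING1 and CFI. In that order SERPING1 and CFI overlapped in their libraries, and every other pair of neighbours was apart. With DMSO, CD55 stood first at 59.8 FPKM, followed by CD59, C1R, PTX3, C1S, CFB, C3, SERPING1 and CFI, and all neighbours were apart. PTX3 was thus below both C3 and CFB with cinobufagin, and above C1S with DMSO.

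Ratios of FPKM within a library were compared between groups for 6 pairs of genes that act together or against each other. With 3 libraries a group, the smallest p an exact two-sided permutation test can give is 0.1, so no pair can pass the threshold. The ratios printed per library are of FPKM as deposited, and the log2 differences and tests are of ratios of FPKM + 1. The ratio of C1R to C1S was 1.09, 1.26 and 1.24 in the cinobufagin libraries and 2.00, 2.07 and 2.24 in the DMSO libraries. The groups lay apart, with a log2 difference of -0.80 (SE 0.08, exact p = 0.1, adjusted over the 6 pairs p = 0.15). The ratio of CD55 to CD59 was 0.581, 0.643 and 0.629 with cinobufagin and 1.03, 1.10 and 1.06 with DMSO, a log2 difference of -0.77 (SE 0.05, exact p = 0.1, adjusted p = 0.15). CD59 was thus the more abundant of the pair in every cinobufagin library and CD55 in every DMSO library.

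The ratio of C3 to CFI was 3.90, 4.22 and 3.95 with cinobufagin and 9.25, 9.67 and 13.4 with DMSO, a log2 difference of -0.97 on the FPKM + 1 scale (SE 0.11, exact p = 0.1, adjusted p = 0.15) and of -1.40 with no pseudocount. The ratio of C1S to SERPING1 was 9.56, 10.8 and 7.69 with cinobufagin and 5.40, 6.09 and 6.20 with DMSO, a log2 difference of 0.46 on the FPKM + 1 scale (SE 0.12, exact p = 0.1, adjusted p = 0.15) and of 0.65 with no pseudocount. These ratios did not overlap between groups either. Of single genes tested, 70.8% did not overlap, and the share over all gene pairs was not determined. C1R to SERPING1 overlapped between groups, at 9.57 to 13.6 with cinobufagin and 10.8 to 13.9 with DMSO (log2 difference of FPKM + 1 -0.33, SE 0.14, exact p = 0.2). That difference was -0.16 with no pseudocount and -0.18 with a pseudocount of 0.1. C3 to CFB also overlapped, at 0.753 to 0.805 with cinobufagin and 0.724 to 0.830 with DMSO (log2 difference 0.04, SE 0.06, exact p = 0.6).

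**Figure D3:**
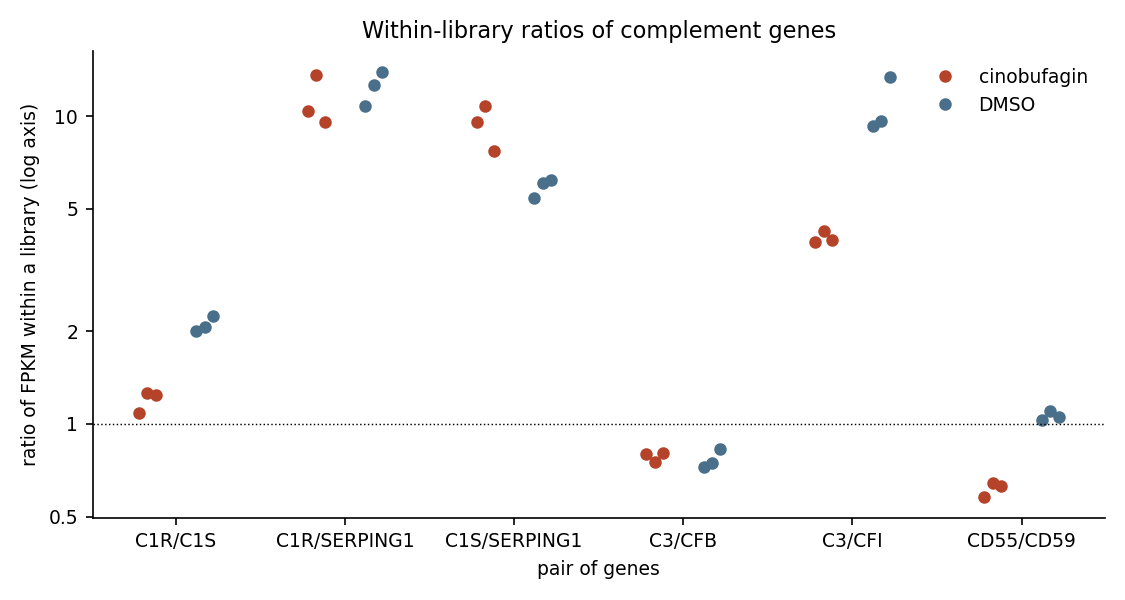
Ratio of the FPKM of a pair of genes within each library, on a log axis, with cinobufagin libraries left of DMSO libraries; each point is a library (n = 3 each) and the dotted line marks equal levels. C1R/C1S, C3/CFI and CD55/CD59 are lower and C1S/SERPING1 is higher in every cinobufagin library, while C1R/SERPING1 and C3/CFB overlap between groups.

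Of 55 other complement and related genes in the lists used, 47 were in the table and 10 passed the filter. Of these 10, 3 were called higher, 4 lower and 3 neither, a share called near the 67.7% over all genes tested. Their median log2 fold change was -0.13, beside 0.06 over all genes tested. Of the 4 lower, CFD and C5 passed the filter through the DMSO libraries. The 37 genes under the filter reached at most 1.11 FPKM, and 11 of them were listed at 0 in every library. C1QA and C1QB, 2 of the chains of C1q, were among those at 0, as was C9 of the membrane attack pore. C4A and C4B, nearly identical genes whose reads are hard to divide, were at 0.33 to 0.83 and 0.26 to 0.40 FPKM with cinobufagin, and at 0.69 to 0.94 and 0.03 to 0.35 FPKM with DMSO.

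Among tested genes of the list of regulators and related genes, CLU and CD46 rose, CD109 fell, and VTN and PROS1 did not pass. CLU, clusterin, which binds terminal complexes, averaged 208 FPKM with cinobufagin and 48.6 FPKM with DMSO (log2 fold change 2.07, SE 0.04, adjusted p = 2.48e-11 by limma). CD46, the membrane cofactor for factor I, had 123.06, 122.44 and 118.42 FPKM with cinobufagin, against 84.11, 90.56 and 94.90 FPKM with DMSO (log2 fold change 0.43, SE 0.05, adjusted p = 8.77e-06 by limma). Of the widely expressed membrane regulators, CD46 and CD59 were thus higher and CD55 lower. CD109, counted here as a GPI-anchored relative of C3, fell by 0.48 on the log2 scale.

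The alternative and terminal pathway list had 2 tested genes, both called lower, as were 28.4% of all genes tested. A count of 2 says little of the list. CFD, factor D, which cleaves factor B, averaged 0.633 FPKM with cinobufagin and 1.48 FPKM with DMSO (log2 fold change -0.60, SE 0.09, adjusted p = 0.000151 by limma), and C5 averaged 0.873 FPKM with cinobufagin and 1.31 FPKM with DMSO (log2 fold change -0.30, SE 0.10, adjusted p = 0.0168 by limma). Both were above 1 FPKM mainly in the DMSO libraries, through which they passed the filter, so their selection favoured a fall. Of the receptor list 2 genes were tested, both multifunctional proteins that can bind C1q. C1QBP, found mostly in mitochondria, fell by 0.70 on the log2 scale (SE 0.04, adjusted p = 4.12e-08 by limma), and the chaperone CALR rose by 0.23 (SE 0.04, adjusted p = 0.000585 by limma). The anaphylatoxin receptors C3AR1 and C5AR1 were at 0.2 FPKM or lower in every library.

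Of the pentraxin family, PTX3 and NPTXR were tested. NPTXR, a membrane-bound neuronal pentraxin, averaged 36.0 FPKM with cinobufagin and 36.9 FPKM with DMSO (log2 fold change -0.03, SE 0.04, adjusted p = 0.499 by limma), and CRP, NPTX1, NPTX2 and PTX4 were listed at 0. Of known partners of PTX3 in the matrix, 3 of the 13 found in the table were tested and all 3 were called lower, as were 28.4% of all genes tested. A count of 3 says little of the partners as a group. FGF2, a growth factor that PTX3 binds, had 56.73, 56.13 and 55.33 FPKM with cinobufagin, against 109.31, 132.86 and 128.69 FPKM with DMSO (log2 fold change -1.12, SE 0.06, adjusted p = 3.36e-08 by limma). The hyaluronan receptor CD44 fell by 0.59 and fibronectin, FN1, fell by 0.36 on the log2 scale. TNFAIP6, which helps to build the hyaluronan matrix with PTX3, was under the filter at 0.15 to 0.36 FPKM with cinobufagin and 0.51 to 0.71 FPKM with DMSO.

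Genes of the cytokine signalling known to induce complement genes or PTX3, with the feedback inhibitor SOCS3 among them, moved both ways. Of the 24 that were tested, 9 were higher, 9 lower and 6 neither, with a median log2 fold change of -0.03. Over all genes tested 39.2% were higher and 28.4% lower. Receptor genes were called in both directions: IL6ST, IL6R, IFNGR1 and IFNGR2 were higher, and OSMR, IL1RAP and TNFRSF1A were lower. IL6R was low, at 1.54 FPKM with cinobufagin and 0.987 FPKM with DMSO. It passed the filter only with its cinobufagin libraries counted, so its selection favoured a rise. The kinase genes JAK1, JAK2 and TYK2 were higher, and STAT3 rose most of the list, by 0.62 on the log2 scale (SE 0.05, adjusted p = 4.84e-07 by limma). The largest falls were those of cytokines, CEBPB and SOCS3. IL1B, an inducer of PTX3, fell by 1.59, IL6 fell by 0.99 and LIF fell by 0.79 on the log2 scale. IL6 was low, at 0.580 FPKM with cinobufagin and 2.13 FPKM with DMSO, and passed the filter only through the DMSO libraries. CEBPB, a transcription factor of acute-phase genes, averaged 18.3 FPKM with cinobufagin and 34.4 FPKM with DMSO (log2 fold change -0.88, SE 0.05, adjusted p = 7.62e-08 by limma), and the feedback inhibitor SOCS3 fell by 0.58. CEBPD, the other C/EBP gene of the list, was called higher, at 4.25 FPKM with cinobufagin and 3.07 FPKM with DMSO (log2 fold change 0.38, SE 0.13, adjusted p = 0.0208 by limma). The CEBPD libraries overlapped between groups. The NF-kappaB subunit genes NFKB1, NFKB2, RELA and RELB did not pass, with log2 fold changes of -0.13 to 0.03.

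**Figure D4:**
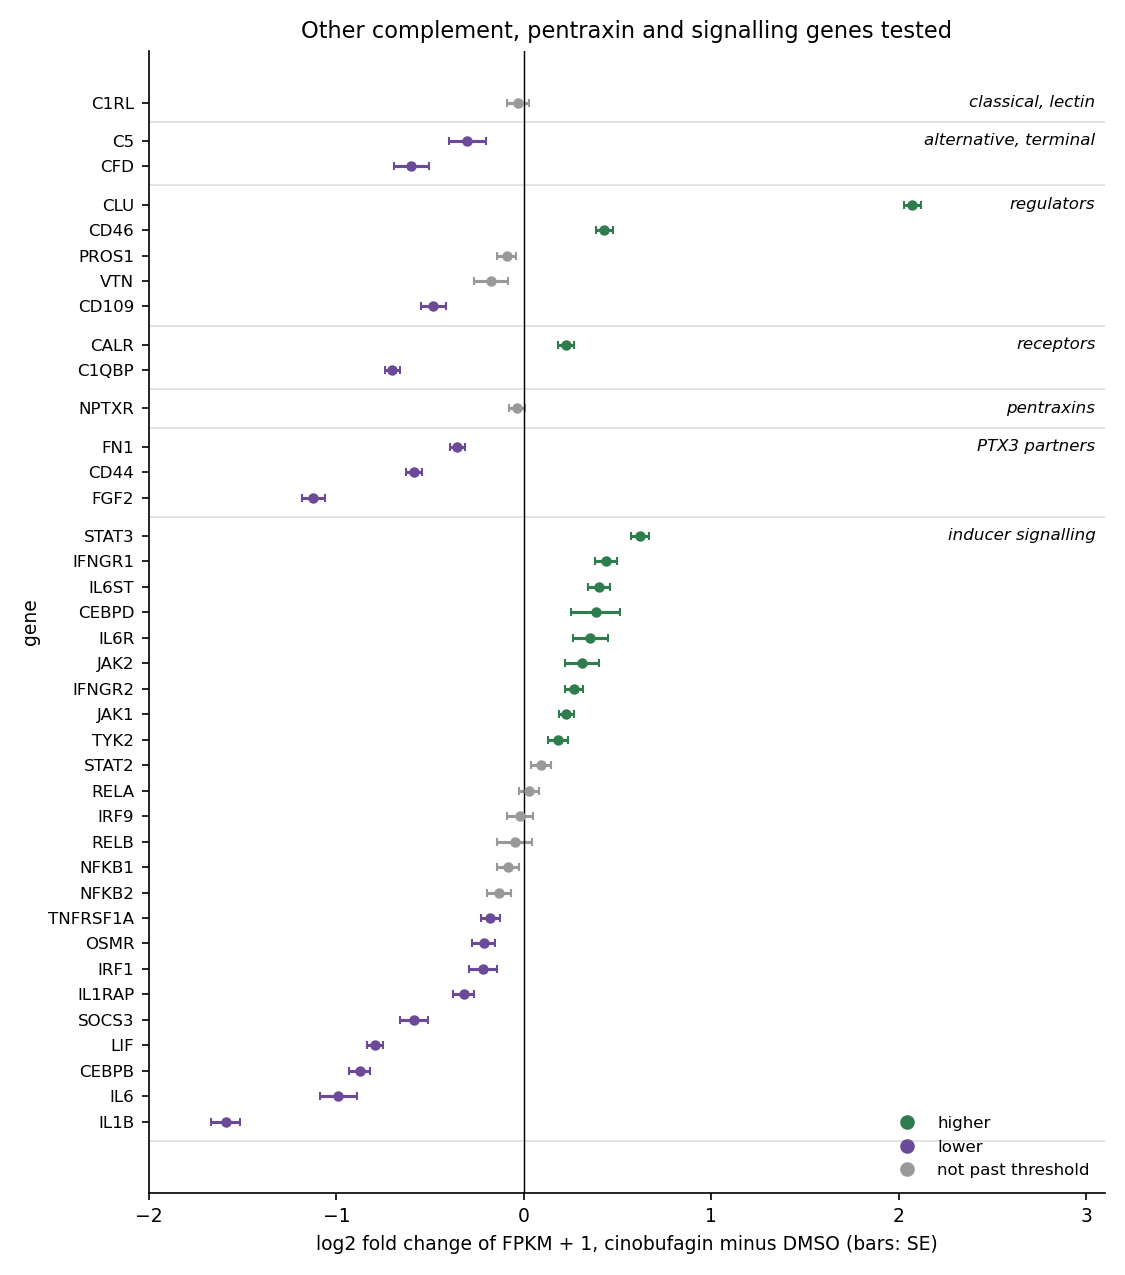
Log2 fold change of FPKM + 1, cinobufagin minus DMSO, of the tested genes of 7 lists, with bars for the SE; green genes rose, purple genes fell and grey genes did not pass the threshold. CLU at 2.07 lies furthest right and IL1B at -1.59 furthest left. The receptor genes of cytokine signalling lie on both sides of 0, and the kinase genes lie right of it.

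The genes whose 6 values lay nearest to those of PTX3, each taken relative to its DMSO mean on the log2 scale, were DKK1, PCP4 and KRTAP2-3, with root mean square differences of 0.07, 0.18 and 0.20. DKK1, a secreted Wnt inhibitor, averaged 9.49 FPKM with cinobufagin and 68.9 FPKM with DMSO. For C1R the nearest were CNPY3, NRP2 and ATF4, with differences of 0.02, 0.03 and 0.03. ATF4, a transcription factor of the amino acid response, averaged 165 FPKM with cinobufagin and 319.6 FPKM with DMSO. With 6 libraries in 2 groups, genes with an equal difference between the groups lie near each other by construction.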

How the data were processed

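The authors deposited FPKM values per Entrez gene ID, to 2 decimals, per the file headers. Bowtie2, RSEM 1.3.1, DESeq2 1.4.5 and GRCh38.p13 are named in the submitters' processing notes without their roles. The sources used here give neither read totals nor the strand setting, so no counting interval can be given, and FPKM moves all genes when a few abundant ones change. Columns headed mock were taken as the DMSO libraries of the same number, as the series has no other control. Entries without a gene ID (19) and any genes annotated to the mitochondrial chromosome were left out, which left 17945 genes. Identical values were found in 0 pairs of libraries. Symbols came from RefSeq on GRCh38.p14, positions from GENCODE 29 on GRCh38.

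Genes at 1 FPKM or more in 3 or more libraries (11599) were fitted as log2(FPKM + 1) with limma 3.58.1 (R 4.3.3, mean-variance trend), cinobufagin minus DMSO over 6 libraries, with Benjamini-Hochberg adjustment over all genes tested and a threshold of 0.05. The SE beside a log2 fold change is limma's moderated one. Pair ratios were compared as log2 ratios of FPKM + 1 with an exact permutation test (scipy 1.17.1), with the SE from the SD of each group. The fit was tested on simulated data in which few genes changed, unlike these data, in which 67.7% of genes were called.

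The 9 genes, the lists and the pairs were chosen with earlier results of these data known. Named were all 9 genes, genes of the complement, pentraxin, PTX3 partner and inducer lists past the threshold with a log2 change of at least 0.5 (up to 6 a list), members of small counts, and the 3 nearest profiles of PTX3 and C1R. Pigment epithelium markers and genes such as CD46, C1QA, C4A, NFKB1, IL6ST, OSMR, CEBPD and TNFAIP6 were added for their roles, after their values were seen. Some genes of these lists are not reported here.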

Additional observations from a re-analysis of the deposited data

How the results depend on the processing

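PTX3, C1R, SERPING1, CD55, CFB, C3, CFI and CD59 kept their direction and stayed past the threshold under every alternative that gave them a value: median centring, quantile normalization, no mean-variance trend, a pseudocount of 0.1, no filter, a 5 FPKM filter, the replicate block and leaving out each library. C1S kept its direction but missed the threshold with no filter (log2 fold change -0.16, adjusted p = 0.0549 by limma), and also without cinobufagin replicate 2, cinobufagin replicate 3 or DMSO replicate 1. Leaving out each library gave C1S -0.20 to -0.11 and PTX3 -2.83 to -2.74, and 6 to 7 of the 9 genes lower. With a log2 fold change of at least 1 as a further condition, 111 genes were higher and 387 lower, and of the 9 genes 0 were higher and 1 was lower. The filter of 5 FPKM removed CFI and SERPING1, which left 1 higher. Same-numbered libraries did not deviate together (r = -0.049, -0.105 and -0.00906). With the replicate number as a block, 4454 genes were higher and 3236 lower, against 4552 and 3297 without it, and the same 9 genes were called; for C1S the adjusted p was 0.0225. In that paired analysis the ratio of C1R to C1S gave an exact sign-flip p = 0.25, the smallest it can give. No ratio changed direction under its alternatives. Median centring moved the share of higher among called genes to 52.1%, against 58%. Depth is unknown, so the low values of CFI and SERPING1 carry an unknown counting error.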

Other observations

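Some genes beside the complement genes also had libraries that did not overlap between groups, as 70.8% of genes tested did. FBXO3, a ubiquitin ligase gene 4448 bases from CD59, had 23.38, 22.45 and 23.25 FPKM with cinobufagin, against 12.24, 14.20 and 12.81 FPKM with DMSO. PLA2G12A, a secreted phospholipase gene next to CFI, had 13.67, 13.07 and 13.49 FPKM with cinobufagin, against 7.95, 8.17 and 8.13 FPKM with DMSO. ZBTB12, a zinc finger gene near CFB, had 1.94, 2.67 and 1.93 FPKM with cinobufagin, against 5.01, 4.72 and 4.78 FPKM with DMSO. LPCAT3, a phospholipid-remodelling enzyme gene that overlaps C1S in the annotation, had 11.94, 10.27 and 11.50 FPKM with cinobufagin, against 7.41, 7.26 and 6.74 FPKM with DMSO. These neighbours were picked after their values were seen.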
